A study of Mus musculus with 6 samples.

Results

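Circular RNAs (circRNAs) from the host genes Rims1 and Rims2 were taken as every entry of the deposited circRNA table whose host gene carried the identifier of either gene. Rims2 (ENSMUSG00000037386, chr15:39198261-39684372, plus strand, mouse build GRCm38) was the host of 31 of the 11171 circRNAs listed. Rims1 (ENSMUSG00000041670, chr1:22286251-22805994, minus strand) was the host of 0, and 0 other entries had an end inside that gene. The identifiers of the table ran from 1 to 11171 with 0 gaps. The circles described here are therefore those of Rims2. Their mmu_circ names carry the running numbers of this table, which were not matched to the circBase database. The study gives a separate circBase identifier for its CircPTPN4. The missing Rims1 entries set no upper limit on its circles, because a junction that failed the authors' filters is not listed.

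The libraries came from the cerebral cortex of male mice aged 6 weeks, labelled C57BL/6 and named C57BL/6J in the study's methods. The TLE group (temporal lobe epilepsy model, 3 mice) received scopolamine methyl bromide and then pilocarpine, a muscarinic agonist that brings on Status Epilepticus (SE), which was ended with diazepam, and its cortex was taken 24 h after SE. The Control group (3 mice) received saline in place of these agents. Each mouse gave 1 library, from whole cortex depleted of ribosomal RNA, so that diazepam and scopolamine cannot be told apart from pilocarpine and SE, and a change in the number of cells of a type cannot be told apart from a change in RNA per cell.

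RIM proteins are scaffolds of the presynaptic active zone, the membrane patch where synaptic vesicles fuse. They bind the vesicle GTPase Rab3, the priming factor Munc13, RIM-binding proteins and voltage-gated calcium channels, and so hold primed vesicles close to the sites of calcium entry. A circRNA arises when a splice donor is joined to an acceptor that lies upstream of it (back-splicing), which leaves a closed ring without a cap or poly(A) tail. The brain is rich in circRNAs, many of them from genes of the synapse.

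The unit of the table is SRPBM, the junction reads of a circRNA scaled to the mapped reads of its library. One junction read was worth between 8.55 and 10.3 SRPBM, and a library held between 32504 and 56516 junction reads over all circRNAs. The lowest number listed was 2 reads, and 3 reads, the floor used here for counting error, came to between 25.6 and 31.0 SRPBM. The Control libraries summed to 347492 ± 14939 SRPBM over all circRNAs and the TLE libraries to 411269 ± 76664 (SD, n = 3 each). This total overlapped between the groups (p = 0.3, two-sided exact permutation test, which with 3 against 3 libraries cannot go below 0.1). The median circRNA had a log2 fold change of 0.17 between TLE and Control, and of 0.01 once every library had been brought to 1 common total (rescaled), so the fold changes of the Rims2 circles named below are given on both scales. No batch is given in the labels.

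The leading Rims2 circle, mmu_circ_0002836 (chr15:39566943-39616510), ran from exon 20 to exon 22 of the transcript Rims2-201, the 27-exon reference used here for exon numbers. Its exons are printed because 860 of the 1615 Rims2 junction reads (53.3%) belonged to this ring. Exon 20 lies at chr15:39566943-39567043, exon 21 at chr15:39585590-39585762 and exon 22 at chr15:39616269-39616510. The sequences are those of the GENCODE transcript on the plus strand, 5′ to 3′, and the capitals mark the 20 bases on either side of the back-splice.
exon 20: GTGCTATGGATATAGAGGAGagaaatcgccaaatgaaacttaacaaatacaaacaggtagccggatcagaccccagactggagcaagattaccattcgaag
exon 21: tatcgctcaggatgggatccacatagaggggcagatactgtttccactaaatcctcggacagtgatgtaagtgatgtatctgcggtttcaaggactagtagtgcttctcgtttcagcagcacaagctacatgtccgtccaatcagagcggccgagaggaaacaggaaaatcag
exon 22: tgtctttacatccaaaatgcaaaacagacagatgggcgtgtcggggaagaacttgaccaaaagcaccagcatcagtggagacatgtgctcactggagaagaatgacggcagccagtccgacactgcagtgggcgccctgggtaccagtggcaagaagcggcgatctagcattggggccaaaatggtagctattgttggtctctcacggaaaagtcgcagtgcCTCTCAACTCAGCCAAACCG

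The 3 exons add up to 516 nucleotides, all of them coding in the linear transcript and a multiple of 3 in length. Their GC content was 49.8%, against 49.1% for the whole transcript of 4719 nucleotides. The ring is bordered by long introns. The intron before exon 20 has 30961 bases and the intron after exon 22 has 58429, ranks 5 and 3 by length among the 26 introns of the transcript, whose median is 4040.5. Reads across a back-splice do not show which exons between the ends were kept, so exon numbers and lengths follow from the annotation.

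The back-splice itself is what the reads identify. Its 40 bases are printed for the 6 most abundant circles with both ends on exon boundaries of Rims2-201, with the end of the last exon in lower case and the start of the first exon in capitals.
mmu_circ_0002836: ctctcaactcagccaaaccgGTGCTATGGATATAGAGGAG
mmu_circ_0002837: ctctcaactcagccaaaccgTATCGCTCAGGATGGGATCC
mmu_circ_0002822: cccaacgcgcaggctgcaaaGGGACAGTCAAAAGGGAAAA
mmu_circ_0002810: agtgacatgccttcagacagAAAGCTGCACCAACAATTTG
mmu_circ_0002829: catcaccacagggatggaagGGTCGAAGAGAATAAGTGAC
mmu_circ_0002824: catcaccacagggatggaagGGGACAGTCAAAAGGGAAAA

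These junctions share their sides. mmu_circ_0002836 and mmu_circ_0002837 carry the same exon 22 end, mmu_circ_0002829 and mmu_circ_0002824 the same exon 17 end, and mmu_circ_0002822 and mmu_circ_0002824 the same exon 5 start. Over all members, the 31 circles used 16 distinct starts and 11 distinct ends.

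Exon 22 was the main donor. Its end at position 39616510 closed 10 of the 31 circles and 79.7% of the Rims2 junction reads. The starts it was joined to were exon 20 with 860 reads, exon 21 (mmu_circ_0002837, chr15:39585590-39616510) with 228 reads, 2 positions in intron 19 with 96 and 56 reads, and 6 further starts with at most 17 reads each. The share of the Rims2 signal that ended at exon 22 was 79.5%, 75% and 85% in Control 1 to 3 and 75.3%, 78.3% and 83.6% in TLE 1 to 3. The means, 79.8 ± 5.0% and 79.1 ± 4.2% (SD, n = 3 each), differed by less than the spread between libraries (two-sided exact permutation test, p = 0.8).

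Upstream of this site the circles formed a second, weaker domain. The start of exon 5 at position 39452224 opened 6 circles with 159 reads (9.85%), which ended at exons 13, 16, 17, 19, 20 and 21. The start of exon 4 at 39436997 opened 5 circles with 49 reads. A start just upstream of exon 5, at 39452040, is an exon boundary of another annotated Rims2 transcript and opened 3 circles with 21 reads. The donor of exon 13 closed 4 circles (103 reads), that of exon 17 closed 2 (73 reads) and that of exon 3 closed 3 (62 reads). No circle began at exon 1 and none reached exons 23 to 27.

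**Figure D1:**
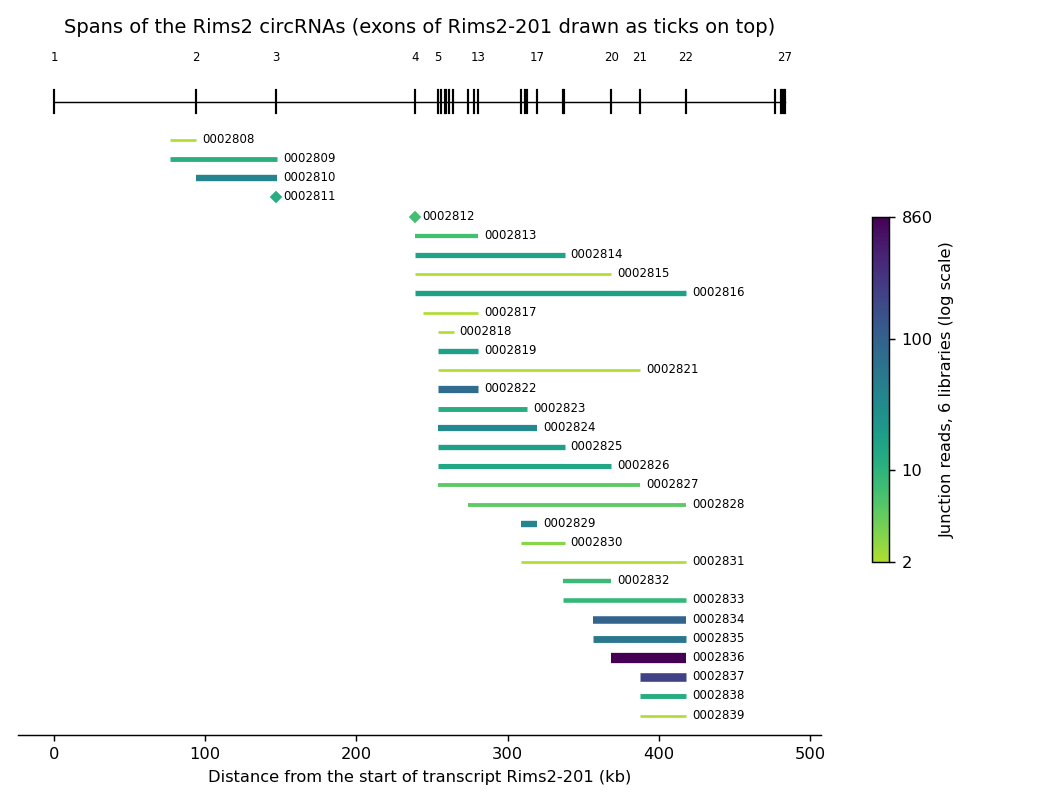
Spans of the 31 Rims2 circRNAs (horizontal lines, with mmu_circ numbers; diamonds mark the 2 circles under 1 kb) against the distance from the start of transcript Rims2-201 in kb, coloured by junction reads over the 6 libraries on a log scale. The 10 circles that end at exon 22 line up on the right, and mmu_circ_0002836 stands out with 860 reads.

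Of the 31 circles, 21 had both ends on exon boundaries of Rims2-201 and 26 on boundaries of any annotated Rims2 transcript. The genomic span ran from 311 to 179514 bases with a median of 53519. The 7 circles over 100 kb held 2.91% of the reads. The longest, mmu_circ_0002816, ran from exon 4 to exon 22 with 19 exons between its ends and had 17 reads. The only 2 circles made of 1 exon were mmu_circ_0002811 (exon 3, 311 bases, 12 reads) and mmu_circ_0002812 (exon 4, 926 bases, 7 reads). Over the 21 circles placed on the transcript the median was 9 exons and 1209 exonic nucleotides.

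The other 5 circles had a start that is on no annotated Rims2 exon boundary, and together 10.4% of the reads. All 31 ends were annotated. These starts came in pairs 3 bases apart at 2 places. In intron 19, mmu_circ_0002834 began at 39555065, which is 11878 bases before exon 20, and mmu_circ_0002835 began at 39555068. Inside exon 21, mmu_circ_0002838 began at 39585706, which is 116 bases after the start of the exon, and mmu_circ_0002839 began at 39585709. The sequence around the exon 21 pair is shown to place both starts. The letters AG stand directly before either start. The authors called circRNAs on GT-AG back-splices, so these letters are no separate support for the starts. The 2 bases before the start are in capitals and the start is the base after them.
start 39585706 (chr15:39585686-39585725): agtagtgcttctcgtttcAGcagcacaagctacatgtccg
start 39585709 (chr15:39585689-39585728): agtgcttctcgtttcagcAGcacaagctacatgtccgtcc

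The upstream start of the pair had more reads at both places, 96 against 56 in intron 19 and 12 against 2 in exon 21. The fifth unannotated start, at 39442157 in intron 4, belonged to mmu_circ_0002817 with 2 reads. One more entry with both ends inside Rims2, mmu_circ_0002820 (chr15:39452040-39517871), carries no host gene in the table and is not counted among the 31. It shares its start with 3 members and its end with 2, and had 42.7, 0 and 0 SRPBM in Control and 0, 26.3 and 69.2 in TLE.

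Summed over the exons that each circle spans, the signal was low at the 5′ end of the gene, moderate from exon 5 to exon 17 and highest at exons 20 to 22. Circles across exon 2 summed to 37.1 ± 34.6 SRPBM in Control and 121 ± 30.6 in TLE (SD, n = 3 each). These sums come from 3 circles with 52 reads, 1 of them (mmu_circ_0002809) listed in TLE only, and Control 2 was at 0. Those across exons 5 to 10 summed to 294 ± 118 in Control and 383 ± 89.6 in TLE, from 14 circles. Across exons 18 and 19 the sums were 98.1 ± 49.8 and 206 ± 88.9. Across exon 21 they were 1576 ± 173 and 2254 ± 353. In both groups the sum was highest across exons 21 and 22.

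**Figure D2:**
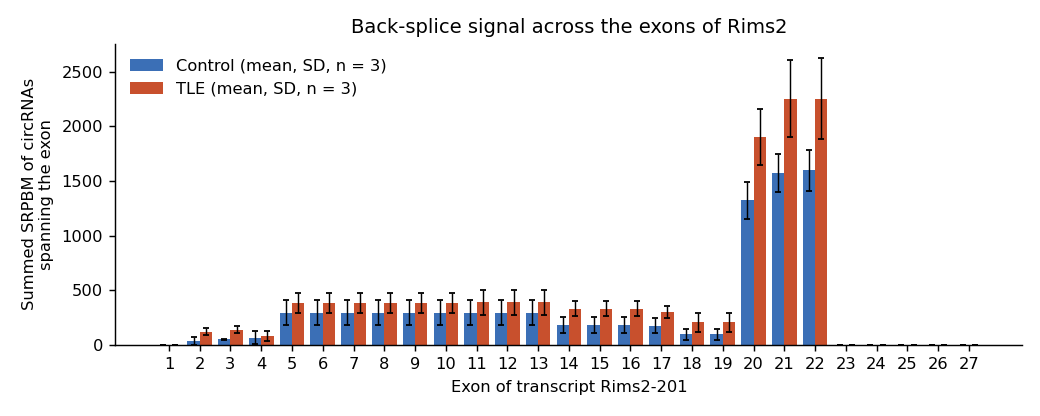
Summed SRPBM of the Rims2 circRNAs that span each exon of transcript Rims2-201 (bars, mean; whiskers, SD, n = 3 libraries) in Control and TLE. Both groups peak at exons 20 to 22 and are at 0 at exon 1 and at exons 23 to 27.

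Among the 3469 host genes, Rims2 ranked 3rd by number of circles and 4th by summed level, with a mean of 2420 SRPBM over the 6 libraries. Above it were Dtnb (3376 SRPBM), Gigyf2 (3085 SRPBM) and Anks1b (2739 SRPBM). The leading circle ranked 16th among all circRNAs. It made up 53.2% of the mean Rims2 level, against a median of 32.8% for the leading circle of the 56 hosts with at least 15 circles, where Rims2 ranked 8th. The top 2 Rims2 circles held 67.4% of its reads and the top 5 held 81.5%. The rest were sparse: the median circle had 12 reads over all libraries, 14 had at most 10, 6 were seen in all 6 libraries and 9 in 1 library only.

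The first comparison asks whether the Rims2 circles as a whole differed after SE. Their sum was 1795, 2083 and 2119 SRPBM in Control 1 to 3 and 2427, 3191 and 2907 in TLE 1 to 3. Every TLE library lay above every Control library. The means were 1999 ± 178 and 2842 ± 386 SRPBM (SD, n = 3 each), a ratio of 1.42 (p = 0.1, which no two-sided exact permutation test of 3 against 3 can undercut). Groups also did not overlap, with TLE above Control, in 10.7% of the 2157 host sums tested.

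In limma across those host sums, Rims2 had a log2 fold change of 0.50 (SE 0.195, unadjusted p = 0.0192), short of the study's threshold of 1.5. The Benjamini-Hochberg adjusted p in limma was 0.766, and between 0.0632 and 0.953 over 13 alternative settings. An unadjusted p under 0.05 was reached by 6.17% of host sums, and Rims2 ranked 52nd by p. The median host sum had a log2 fold change of 0.20. With the libraries rescaled to the same total, the Rims2 value was 0.27 (limma, unadjusted p = 0.0439, adjusted p = 0.852) and the median 0.01. The unadjusted limma p for Rims2 was 0.114 without Control replicate 1, 0.0525 without Control replicate 2, 0.111 without TLE replicate 2 and 0.192 when the prior variance was not allowed to follow the mean.

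Relative to all circRNA signal the groups overlapped. Rims2 made up 0.511%, 0.629% and 0.589% of the total SRPBM in Control 1 to 3 and 0.723%, 0.780% and 0.595% in TLE 1 to 3. TLE 3, the library with the most junction reads, fell among the Control values. The means were 0.576 ± 0.060% and 0.699 ± 0.095% (SD, n = 3 each; two-sided exact permutation test, p = 0.2).

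The leading circle followed the sum. mmu_circ_0002836 was at 1017, 948 and 1240 SRPBM in Control 1 to 3 and at 1322, 1499 and 1696 in TLE 1 to 3, from between 102 and 196 reads per library. The TLE libraries were all higher, by 1322 against 1240 SRPBM for the nearest pair. The means were 1069 ± 153 and 1506 ± 187 SRPBM (SD, n = 3 each), a ratio of 1.41 (two-sided exact permutation test, p = 0.1). The limma log2 fold change was 0.49 (SE 0.21, unadjusted p = 0.0295, adjusted p = 0.842). With libraries rescaled to the same total it was 0.27 and the unadjusted limma p was 0.0953.

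Its share of the Rims2 signal differed between the groups by less than the spread between libraries. The share was 56.7% (95% Wilson confidence interval 49.9 to 63.2%), 45.5% (39.1 to 52.1%) and 58.5% (52.3 to 64.5%) in Control 1 to 3. In TLE 1 to 3 it was 54.5% (48.1 to 60.7%), 47.0% (41.9 to 52.1%) and 58.3% (53.0 to 63.5%). The intervals cover counting error only. The means were 53.6 ± 7.0% and 53.3 ± 5.8% (SD, n = 3 each; two-sided exact permutation test, p = 0.9).

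**Figure D3:**
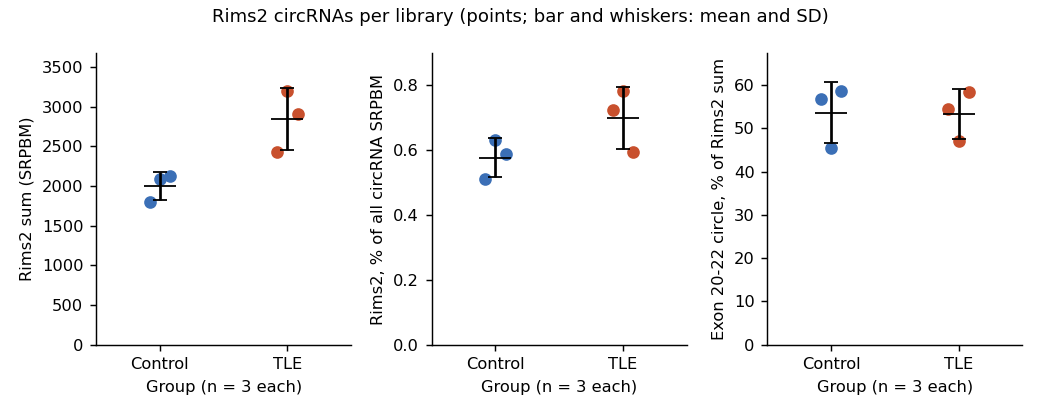
The Rims2 sum in SRPBM, its percent of all circRNA SRPBM, and the percent of the Rims2 sum in mmu_circ_0002836 (exons 20 to 22), for each Control and TLE library (points) with the mean and SD (n = 3). The groups are separate for the sum, where the highest Control library is at 2119 and the lowest TLE library at 2427 SRPBM, and overlap in the other 2 panels.

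The remaining Rims2 circles without mmu_circ_0002836 summed to 930 ± 184 SRPBM in Control and 1336 ± 313 in TLE (SD, n = 3 each; two-sided exact permutation test, p = 0.2), a ratio of 1.44. Libraries held 13, 16 and 19 detected Rims2 circles in Control and 20, 21 and 17 in TLE (p = 0.2, two-sided exact permutation test). At the depth of the shallowest library the expected numbers were 11.4, 15.8 and 15.1 in Control and 20, 18.6 and 12.3 in TLE (p = 0.4, two-sided exact permutation test). TLE 1, with the fewest reads of all libraries, had 20 circles, more than any Control library.

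Of the 31 circles, 19 were above 0 in at least 3 libraries and entered limma, and the other 12 had at most 7 reads each. The study's threshold (unadjusted p under 0.05 and a log2 fold change of 1.5 or more, up or down) was passed by 1 of the 19, against 1.57% of all 4271 circRNAs tested. An unadjusted p under 0.05 was reached by 3 (mmu_circ_0002836, mmu_circ_0002810 and mmu_circ_0002809), against 5.2% of all. In 4 of the 19 the groups did not overlap with TLE above Control (mmu_circ_0002836, mmu_circ_0002810, mmu_circ_0002823 and mmu_circ_0002809), against 8.94% of all, and in 0 with TLE below Control, against 2.11%. On the rescaled values this held for 3 (mmu_circ_0002836, mmu_circ_0002837 and mmu_circ_0002809), against 5.08% of all. Each of these counts of 1, 3, 4 and 3 includes mmu_circ_0002809, which was listed in TLE only and so met the filter through 1 group alone. Without it they were 0, 2, 3 and 2. Of all 4271 circRNAs, 116 met the filter through 1 group alone, among them 39 of the 67 past the threshold. The shares above include these 116. Without them the same 4 counts over all circRNAs were 28, 110, 307 and 142. The median log2 fold change of the 19 members was 0.43 against 0.17 for all circRNAs, and 0.27 against 0.01 after rescaling. These medians include mmu_circ_0002809, whose fold change had to be above 0. The smallest Benjamini-Hochberg adjusted p in limma was 0.838 over all circRNAs, mmu_circ_0002809 included. Among the members other than mmu_circ_0002809 it was 0.842, for mmu_circ_0002836.

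**Figure D4:**
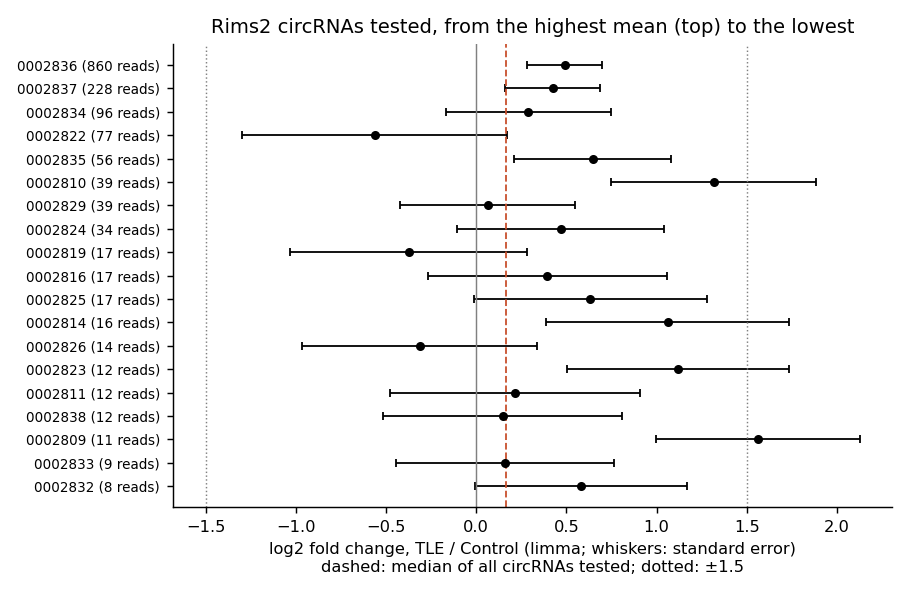
Log2 fold change, TLE against Control, of the 19 Rims2 circRNAs tested in limma, in order of mean level, with the standard error (whiskers) and the junction reads over 6 libraries; the dashed line is the median of all circRNAs tested (0.17) and the dotted lines are the study's threshold of 1.5. Only mmu_circ_0002809, listed in TLE only, passes 1.5, and the standard errors widen toward the sparse circles.

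The member past the threshold was mmu_circ_0002809 (chr15:39274976-39345620), which ends at exon 3 and starts at an exon boundary of another annotated Rims2 transcript, between exons 1 and 2 of Rims2-201. It was listed at 0 in all 3 Control libraries, while TLE 1 to 3 held 51.6, 26.3 and 26.0 SRPBM, from 11 reads in all. With the floor of 3 reads set for each Control library, the TLE mean of 34.6 SRPBM came out at least 1.31-fold higher. This rests on TLE 1 with 5 reads, since TLE 2 and TLE 3 held 3 reads each, the floor itself. The circle entered limma only through the TLE libraries, so that its groups had to differ. Its unadjusted limma p, under 0.05, therefore cannot be read as a test of a difference. Its fitted log2 fold change of 1.56 (1.51 rescaled) depends on the pseudocount and ran up to 5.08 over the 9 settings that gave a value. With a TLE library left out it was above 0 in fewer than 3 libraries and was not tested.

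The neighbouring circle mmu_circ_0002810 (chr15:39292102-39345620, exons 2 and 3) shares its end with it. Control 1 to 3 held 51.3, 0 and 43.1 SRPBM of it and TLE 1 to 3 held 103, 87.7 and 69.2. On this scale all TLE libraries were higher, the means being 31.4 ± 27.5 and 86.7 ± 17.1 SRPBM (SD, n = 3 each). The limma log2 fold change was 1.32 (SE 0.57, unadjusted p = 0.0334, adjusted p = 0.878). On the rescaled values it was 1.2 with an unadjusted limma p of 0.0516, and the groups overlapped. On the SRPBM scale without Control replicate 2, the library at 0, it was 0.68, and without Control replicate 1 or 3 it was 1.68 or 1.59, past the threshold. Summed over the 3 circles that end at exon 3, the signal was 51.3, 55.8 and 43.1 SRPBM in Control and 176, 114 and 130 in TLE. That end was found in every library. Separate groups with TLE above Control were found for 3 of the 11 ends on the SRPBM scale (exons 3, 16 and 22) and for 1 on the rescaled values (exon 3). For the starts it was 3 of 16 on either scale. On both scales these include the start of mmu_circ_0002809, and each of the others opened 1 circle only. Among single circRNAs, a different unit, the shares were 8.94% on the SRPBM scale and 5.08% rescaled. No share over the ends or starts of all hosts was worked out, so these counts have no background to be read against. The exon 16 end is that of 1 circle, mmu_circ_0002823. The exon 3 end was described after its values were seen, and its sum includes mmu_circ_0002809. The third circle that ends at exon 3, mmu_circ_0002811, had 0, 55.8 and 0 SRPBM in Control against 20.7, 0 and 34.6 in TLE, so that Control 2 had this circle and none of the other 2.

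Of the other 4 circles among the 5 with the highest mean, 0 had separate groups on the SRPBM scale. mmu_circ_0002837 was at 282, 270 and 301 SRPBM in Control 1 to 3 and at 300, 386 and 502 in TLE 1 to 3, with TLE 1 just below the highest Control library (log2 fold change 0.43, rescaled 0.21, limma unadjusted p = 0.125 on the SRPBM scale). mmu_circ_0002834, the upstream start in intron 19, measured 59.8, 205 and 112 SRPBM in the Control libraries, against 72.3, 272 and 138 in TLE (log2 fold change 0.29, rescaled 0.08). Its partner mmu_circ_0002835 measured 51.3, 74.4 and 51.7 SRPBM in Control, against 93.0, 175 and 60.6 in TLE (log2 fold change 0.65, rescaled 0.47). For both intron 19 starts the highest library of a group was replicate 2 in Control and in TLE. The ranges of the groups overlapped for both.

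mmu_circ_0002822 (chr15:39452224-39478710, exons 5 to 13, 1170 nucleotides) was the most variable of the abundant circles. It was at 145, 177 and 34.5 SRPBM in Control 1 to 3 and at 0, 210 and 112 in TLE 1 to 3. Its log2 fold change of -0.56 (rescaled -0.81, limma unadjusted p = 0.455 on the SRPBM scale) was 0.55 without TLE replicate 1, the library listed at 0. TLE 1 nevertheless held 238 SRPBM from the exon 5 start as a whole, from circles with other ends. mmu_circ_0002823, with the same exon 5 start but ending at exon 16, measured 0, 0 and 17.2 SRPBM in Control, against 51.6, 26.3 and 17.3 in TLE. Its Control libraries were all at or under the floor, and the mean in TLE exceeded that floor by at least 1.2-fold (limma log2 fold change 1.12, rescaled 1.07, unadjusted p = 0.0878 on the SRPBM scale). The lowest TLE value and the highest Control value of that circle were 2 reads each, and on the rescaled values the groups overlapped.

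**Figure D5:**
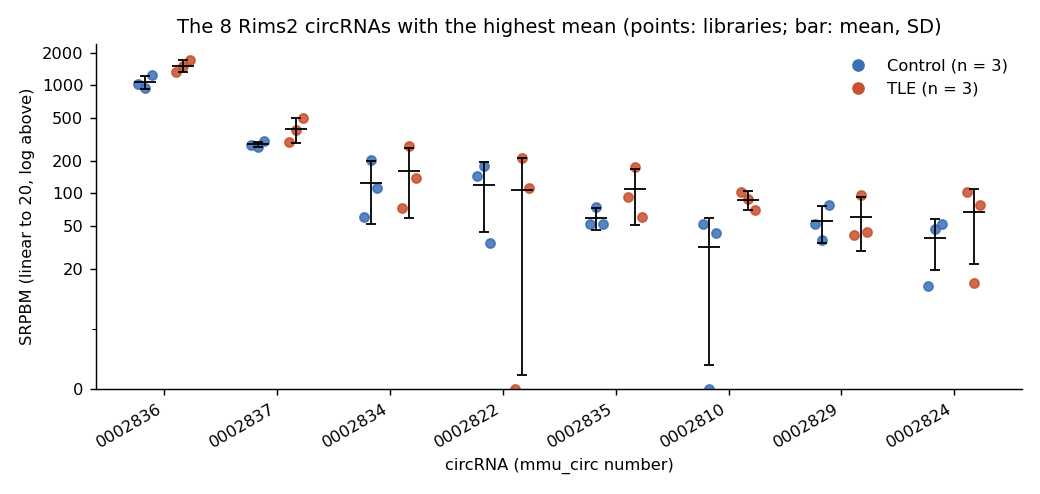
SRPBM of the 8 Rims2 circRNAs with the highest mean in each Control and TLE library (points; bar and whiskers, mean and SD, n = 3), on an axis that is linear up to 20 SRPBM and logarithmic above. mmu_circ_0002836 and mmu_circ_0002810 have every TLE point above every Control point on this scale (on the rescaled values mmu_circ_0002810 does not), and mmu_circ_0002822 spans from 0 to 210 SRPBM within TLE.

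Presence in 1 group only was found for 12 circles, 7 in TLE and 5 in Control, none with more than 11 reads. Among them, the 9 seen in 1 library only are in 1 group by necessity. Of the circles tested, 1 of the 19 members was in 1 group only, against 116 of all 4271 circRNAs. The share over all circRNAs listed was not worked out. Circles of 2 or 3 reads lie at or under the floor in the library that holds them.

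The other genes of the active zone and of vesicle priming were taken from a list of 37. Circles were listed for 16 of them, 100 circles in all, and 13 host sums were tested. Of these, 0 passed the study's threshold in limma (1.9% of all host sums did) and 0 had an unadjusted p under 0.05 (6.17% of all did). In 0 did the groups separate, against 10.7% of all host sums with TLE above Control. With 13 sums, counts of 0 are near these shares. Their median log2 fold change was 0.32, against 0.20 for all host sums on the same SRPBM scale. Rescaled values were not compared for these hosts. The highest levels belonged to Pclo (Piccolo, a large scaffold of the active zone) with 471 ± 48.2 SRPBM in Control and 401 ± 93.2 in TLE (SD, n = 3 each). Next came Cacna1a, the pore subunit of P/Q-type calcium channels, with 425 ± 34.7 SRPBM and 431 ± 173. Erc2, an active-zone scaffold that binds RIM, had 263 ± 91.4 SRPBM and 264 ± 42.8. Their log2 fold changes were -0.24, -0.07 and 0.04. No circle was listed for the short family members Rims3 and Rims4, and the RIM partners Unc13a (Munc13-1) and Rimbp2 had 1 and 3 circles.

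The host sums whose log2 values followed Rims2 most closely over the 6 libraries were Oxct1, a mitochondrial enzyme of ketone body use (Pearson r = 0.979), the host ENSMUSG00000070823, which has no symbol in the tables used (r = 0.965), and the protease gene Tasp1 (r = 0.958), out of 514 hosts with at least 100 reads. The median over these hosts was 0.394 and the library total itself had r = 0.713. These are descriptions over 6 libraries that all sums share.

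Circles of cell type marker genes were mostly those of neuronal markers. Of 12 neuronal marker genes 7 had circles, which summed to between 904 and 1171 SRPBM in Control libraries and between 1096 and 1462 in TLE libraries. Circles were listed for 0 of the other 5 (Snap25, Camk2a, Slc17a7, Gad1 and Gad2). Of 6 astrocyte markers 1 had circles, at 0 to 17.2 SRPBM in Control and 0 to 34.6 in TLE. Circles were listed for 0 of 6 markers each of oligodendrocytes, microglia and endothelial cells. The neuronal ranges of the groups overlapped, and their part in the difference of the Rims2 sum was not tested.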

How the data were processed

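The authors depleted total RNA of ribosomal RNA, made strand-specific libraries, aligned reads with BWA-MEM and called circRNAs with CIRI on GT-AG back-splices. The deposited values are SRPBM, a normalized signal per circRNA and library (mm10, per the submitters' processing notes). The authors tested differences with DESeq2. The table was deposited in 6 identical copies, 1 per sample.

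Here, host identifiers were matched to symbols (3466 of 3469), and circle ends were placed on GENCODE M21 exons. Within each library 99.9965% of values were whole multiples, within 0.01, of 1 step, taken as 1 read. Rows with several hosts (61) were left out of host sums. TLE and Control were compared with limma 3.58.1 (R 4.3.3, eBayes with trend) on log2(SRPBM + 17.0914), the smallest value above 0, for circRNAs above 0 in at least 3 libraries. Fold changes on this scale understate those of low circRNAs. Single values were compared with exact permutation tests (scipy 1.17.1). The limma script was tested on simulated data with known changes. No libraries of 1 group agreed within counting noise.

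Values are given for the 5 highest circles, those past the threshold or with unadjusted p under 0.05, and those with separate groups and at least 10 reads. The members, gene lists and tests were chosen with earlier results of these data known. The labels do not say that mice with the same number are related.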

Additional observations from a re-analysis of the deposited data

How the results depend on the processing

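The Rims2 sum and the leading circle were higher in TLE under all 13 alternatives run for each, and neither reached a log2 fold change of 1.5. The sum ran from 0.27 (rescaled) to 0.61, with an unadjusted limma p under 0.05 in 9 of 13, and the leading circle from 0.27 (rescaled) to 0.60, in 8 of 13. Leaving out 1 library gave 0.41 to 0.61 for the sum, 0.40 to 0.60 for the leading circle, -4.34 to 2.82 percentage points (TLE minus Control) for its share of Rims2, 0.0826 to 0.175 percentage points for the Rims2 share of all signal, and 1.83 to 4.83 for the number of circles detected.

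The number of Rims2 circles past the threshold, 1, was 2 with a pseudocount 0.5 times as large and 2 at a log2 fold change of 1. It was 0 among circles above 0 in all 6 libraries, and 0 to 2 when 1 library was left out (0 whenever it was a TLE library). Over all circRNAs the number, 67, was 168 with that smaller pseudocount, 130 with a pseudocount of 1 SRPBM, 196 at a log2 fold change of 1, 1 among circRNAs above 0 in all 6 libraries, and 82 to 110 when 1 library was left out. With 1 library left out the log2 fold change of mmu_circ_0002834 ran from -0.14 (without TLE replicate 2) to 0.70 and was -0.09 without Control replicate 1, and that of mmu_circ_0002822 ran from -1.32 to 0.55 (without TLE replicate 1). The cause was not tested, beyond the fewer circRNAs or samples that some settings leave.

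With the replicate number as a block (replicate block), the sum kept 0.50 (limma, adjusted p = 0.777, within a range of 0.0632 to 0.953 over its alternatives), and the pairing changed no call. Libraries with the same number did not deviate together (r = 0.019, 0.014 and 0.010 across circRNAs, against -0.024 to 0.009 for other pairs). Not run were 2 planned count models on junction reads worked out from the steps, and every Rims1 setting, since 0 Rims1 entries were listed. Most circles had under 20 reads, which limits what 3 libraries per group can show.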
